A study of Mus musculus with 24 samples.

Results

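Socs1, Tab2 and Map3k8 encode regulators of inflammatory signalling whose 3' untranslated regions (3' UTRs) carry sequence matches to miR-155, a microRNA induced when T cells are activated. Every row with one of these gene symbols was taken from the authors' deposited table of Argonaute 2 (AGO2) peaks, which gave 15 of its 14634 peaks: 5 in Socs1, 6 in Tab2 and 4 in Map3k8. The genes were chosen by the deposited genotype ratios and p-values of their peaks, as targets that might be expected to lose AGO2 without miR-155 but were not called. Their genotype values are therefore given as a description and with no new test.

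The study crosslinked AGO2 to RNA, immunoprecipitated it and sequenced the bound fragments (HITS-CLIP) in 24 libraries from CD4+ T cells of C57BL/6 mice. Of these, 12 were labelled WT (wild type) and 12 miR-155 KO (knockout), each a biological replicate, with 6 of each genotype on either 3' linker. Cells of both genotypes came from spleen and lymph nodes and were cultured for 4 days under stimulation of CD3 and CD28 by antibodies at 1 µg/mL, with IL-2 at 20 U/mL, so resting cells are not represented. The AGO2 antibody was a custom rabbit polyclonal, and the sources used here do not give how the knockout allele was made. Peaks were listed for 8 of 10 marker genes of activated CD4+ T cells, and for 0 of 5 markers each of CD8 and NK cells, B cells, myeloid cells, and erythroid cells and platelets. A gene without a listed peak may still be expressed, and a marker listed under another symbol would have been missed, so this does not measure purity.

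MicroRNAs guide AGO2 to messenger RNAs mainly through their seed, nucleotides 2 to 8, which pairs with a complementary stretch that usually lies in the 3' UTR. SOCS1 is a feedback inhibitor that blocks JAK kinases downstream of cytokine receptors. TAB2 is an adaptor that binds ubiquitin chains and activates the kinase TAK1 upstream of NF-kB and MAP kinases. MAP3K8, also called TPL2, is a kinase that is held by the NF-kB1 precursor p105 and, once released, activates the ERK pathway.

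Below are miR-155 and the Socs1 and Tab2 sequences that match its seed, since the results turn on where these matches lie. Capitals mark the seed in the microRNA and the matching bases in the messenger RNA, and all lines read 5′ to 3′.
miR-155-5p: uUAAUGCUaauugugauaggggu
Tab2, inside peak 3: ataaggtagaaAGCATTAAtgaaatgaaac
Socs1, outside every listed peak: cgctgtgccgcAGCATTAAgtgggggcgcc
The Tab2 window is chr10:7906680-7906709 and the Socs1 window chr16:10784195-10784224 on GRCm38, both on the minus strand and in the last exon of the gene (exon 7 of 7 in Tab2 and 2 of 2 in Socs1). The microRNA is from RefSeq (GRCm38.p6), and the windows are from GENCODE M21 transcripts. Both genes hold the same 8-nt match, AGCATTAA (an 8mer), which pairs with the whole seed and ends in an A opposite nucleotide 1.

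Map3k8, a gene of chromosome 18, holds the 7-nt match GCATTAA (a 7mer-A1), which pairs with nucleotides 2 to 7 and has the same final A. The deposited transcripts are NM_009896.2 for Socs1, NM_138667.3 for Tab2 and NM_007746.2 for Map3k8. Each 3' UTR had exactly 1 miR-155 match of 7 or 8 nt, but in different relations to the peaks. The Tab2 match, at nt 737 to 744 of the 3' UTR, lay inside peak 3 (nt 682 to 765). The Map3k8 match, at nt 282 to 288, lay inside peak 1 (nt 253 to 292). The Socs1 match, at nt 20 to 27, lay 37 nt upstream of the first listed peak (nt 64 to 85). In all, 2 of the 15 peaks held a 7-nt or 8-nt miR-155 match, against 1.81% of all peaks in the table. The genes were taken as possible miR-155 targets, so this share is a description only. The listed peaks covered 50.8% of the Socs1 3' UTR to its RefSeq end at nt 425, 16.6% of that of Tab2 and 14.3% of that of Map3k8. GENCODE extends the Socs1 3' UTR to nt 1993, with no further miR-155 match of 7 or 8 nt and no listed peak beyond nt 419. No further peak of the genes held a 6-nt seed match, an offset 6-nt match (nucleotides 3 to 8) or a 5-nt match with a final A.

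**Figure D1:**
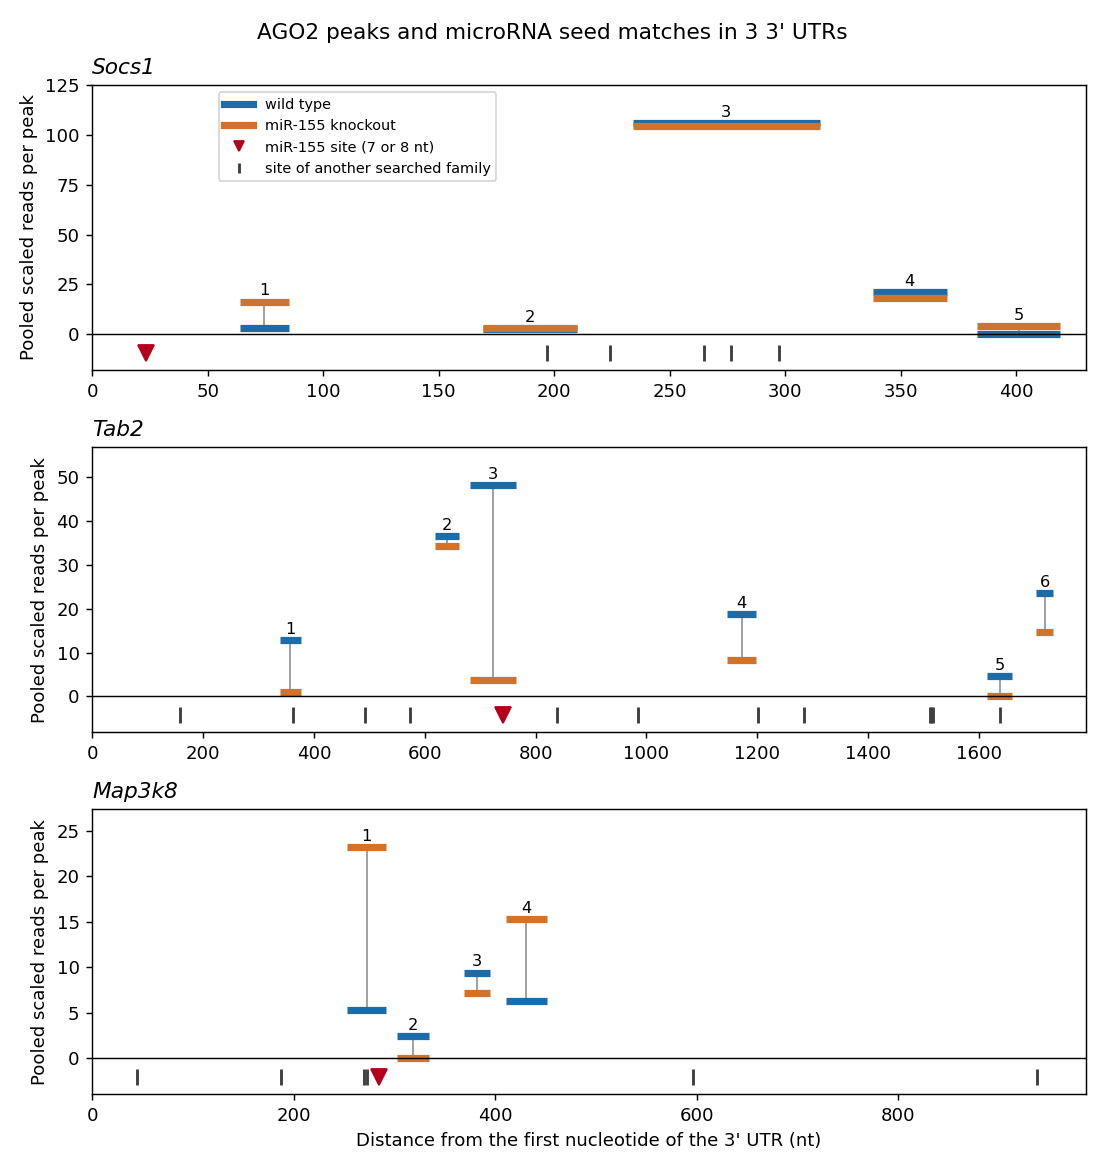
Pooled scaled reads of each listed peak (vertical axis) against distance in nt from the start of the 3' UTR (horizontal axis), up to the RefSeq end of each gene; blue bars are wild type, orange bars the miR-155 knockout, and numbers are the authors' peak numbers. Triangles mark miR-155 matches and ticks mark 7-nt or 8-nt matches of other families: the Socs1 triangle lies before its first peak, the Tab2 triangle under the widest gap between genotypes, and the Map3k8 triangle under a peak that is higher in the knockout, next to 2 ticks.

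All read numbers are the authors' own, scaled and summed into 1 value per genotype, so no value has a replicate error. The whole table sums to 371088 wild-type and 374126 knockout reads, and the median peak holds 17.05 in both genotypes together. Log2 ratios are wild type over knockout, as deposited, on reads read as log2(1 + scaled reads). A peak was called where the authors' p was below 0.05 after Benjamini-Hochberg adjustment across the table. None of the 15 peaks was called in either direction, where 0.601% of all peaks were called, 0.574% as lower in the knockout and 0.0273% as higher. At a p below 0.05 as deposited by the authors, before the adjustment made here, there were 2, Tab2 peaks 3 and 6. Both were higher in wild type, where 2.72% of all peaks stood.

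Socs1 had an unbroken 8mer with no listed AGO2 peak on it. Its 5 peaks held 133 wild-type and 146 knockout scaled reads in all, and each of them lay downstream of the match. The match is at chr16:10784206-10784213. The table can hold peaks so close to the stop codon: its first peak starts at nt 2, and 444 peaks, in 444 genes, spanned nt 20 to 27 of their 3' UTR, with a median of 17.4 scaled reads. Peak 1, the nearest to the match, held 3.37 wild-type and 16.3 knockout reads (p = 0.987 in the authors' deposited table). The knockout was thus the higher genotype at the Socs1 peak closest to the site. Reads too few to make a peak are not in the table, so binding below the authors' peak criteria is not seen here.

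A miR-155 match without a listed peak was common among the genes of the table. The peaks of 3505 of 4165 genes could all be placed on a GENCODE transcript. In these genes 577 matches of 7 or 8 nt lay before the end of the gene's last peak. Of these, 202 (35.01%) overlapped a listed peak extended by 6 nt on each side, counted here as in a peak. The share was 41.2% for 8mers (54 of 131). Of the 6 matches that started within the first 30 nt of a 3' UTR, 2 were in a peak, those of Lpin1 and Snrpb. Those of Socs1, Far1, Pxk and Tbca were not. Both peaks held few reads: 4.57 wild-type reads and a listed 0 in the knockout for Lpin1, and 0.511 and 2.87 for Snrpb. In the 15 nt on either side of the match, Socs1 had 26.7% A or T, against 63.3% for both Tab2 and Map3k8. The median was 66.7% for the 202 matches counted as in a peak and 56.7% for the 375 others. The Socs1 match thus lies in a more GC-rich stretch than the median match of either kind.

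AGO2 on the Socs1 3' UTR was concentrated in peak 3, which held matches to let-7, miR-30 and miR-19 and none to miR-155. Peak 3 (nt 234 to 315; chr16:10783918-10783999) held 106 wild-type and 105 knockout scaled reads, 75.4% of the reads of the gene. Its log2 ratio was 0.02 (p = 0.571 in the authors' deposited table). The 2 genotypes were nearly equal at a peak with more reads than 96.4% of the table. The 3 matches stand within 40 nt and are shown because they lie in the peak that carries most Socs1 reads. Capitals mark the matching bases.
let-7 match: gaattccactcCTACCTCtccatgtttac
miR-30 match: ctacctctccaTGTTTACAtattcccagta
miR-19 match: ttcccagtatcTTTGCACAaaccaggggtc
let-7a-5p: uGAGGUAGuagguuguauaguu
miR-30a-5p: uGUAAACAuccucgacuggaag
miR-19b-3p: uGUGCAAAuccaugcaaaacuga
The let-7 match CTACCTC (nt 262 to 268) pairs with the seed without a final A, while the miR-30 match TGTTTACA (nt 273 to 280) and the miR-19 match TTTGCACA (nt 294 to 301) are 8mers. The windows run over chr16:10783954-10783982, chr16:10783942-10783971 and chr16:10783921-10783950. Peaks of the table held a 7-nt or 8-nt match of let-7 in 1.93% of cases, of miR-30 in 2.92% and of miR-19 in 3.05%. A match does not show which microRNA was bound.

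The other Socs1 peaks were smaller. Peak 4 held 20.99 wild-type and 18.3 knockout reads and no match of any of the 22 families searched. Peak 2, with 73.8% G or C and a miR-29 match (TGGTGCT), held 2.77 and 3.0. Peak 5, which holds the letters AATAAA of a polyadenylation signal and ends 6 nt before the RefSeq end of the gene, held 3.97 knockout reads, with wild type listed at 0. Summed over the 3' UTR the log2 ratio was -0.13. Among 459 genes with a total within 1.5-fold of that of Socs1 the median was -0.02, with 10th and 90th percentiles of -0.60 and 0.62, so the summed ratio was well inside that range.

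Tab2 showed the largest drop of the 3 genes, at the peak with its miR-155 8mer. Peak 3 (chr10:7906670-7906753) held 48.3 wild-type scaled reads and 3.65 knockout reads, 13.2-fold fewer (log2 ratio 3.41). The authors' p was 0.00224, which ranked 150 in the table and gave an adjusted p of 0.219. The largest p that passed was 0.000237. Peak 2 lies only 20 nt upstream and held 36.6 wild-type and 34.4 knockout reads (log2 ratio 0.08). The neighbouring peaks of the same 3' UTR therefore differed widely in their ratios, while the reads of peak 2 were nearly equal. Peak 2 held no match of any family searched, and peak 3 none besides miR-155. A stretch with 1 mismatch to the 7-nt miR-155 match, opposite nucleotide 5, also lay in peak 3. Such a stretch, with the mismatch at any seed position, is present in 7.12% of all peaks.

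All 6 Tab2 peaks were higher in wild type, against 56.4% of peaks in the table. Peak 1 held 12.9 wild-type and 0.868 knockout reads (p = 0.0701 in the authors' deposited table). This peak held an 8mer of miR-142-3p, a microRNA abundant in blood cells, shown here as the longest match of another family under a Tab2 peak.
Tab2, inside peak 1: cttttggtgaaACACTACAtacacaaagag
miR-142a-3p: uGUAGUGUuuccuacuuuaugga
The window is chr10:7907058-7907087, and capitals mark ACACTACA and the seed it pairs with. The 430 peaks of the table with a 7-nt or 8-nt miR-142-3p match had a median log2 ratio of -0.01. Peak 4 held 18.7 and 8.32 reads, and peak 5, with a miR-23 match (ATGTGAA), held 4.62 wild-type reads, with the knockout listed at 0. Peak 6 held 23.6 and 14.6 reads, a log2 ratio of only 0.66, yet had the second smallest p of the gene (0.00975, adjusted 0.576).

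Over its whole 3' UTR Tab2 held 145 wild-type and 61.9 knockout scaled reads, a log2 ratio of 1.21. Of 520 genes with a total within 1.5-fold of it, 16 (3.08%) had a ratio as high or higher. Without peak 3 the sums were 96.3 and 58.3 and the ratio 0.72. Peak 3 thus carried much of the difference, and the remaining peaks still leaned towards wild type. In AGO2 reads a change in messenger RNA level and a change in binding cannot be told apart, and no RNA level was used here.

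The p of Tab2 peak 3 was not unusual for its reads. The table held 8 other peaks within 0.5 log2 units of it in both genotypes, and their p in the authors' deposited table ran from 3.89e-10 to 0.330. Of these 8, 3 were called. The Gpm6b 8mer peak held 41.0 and 3.81 reads and had an adjusted p of 2.48e-07. The Ski peak with a 7-nt match held 37.8 and 3.99 reads and had p = 0.0548 (adjusted p 1.00). Zmym2, also with a 7-nt match, held 39.2 and 4.69 and had an adjusted p of 0.000134. These were also the 3 site peaks nearest to Tab2 peak 3 in reads. Peaks with nearly the same pooled reads thus stood on both sides of the threshold. The pooled columns do not show how the reads were spread over libraries, so what separated them was not tested.

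**Figure D2:**
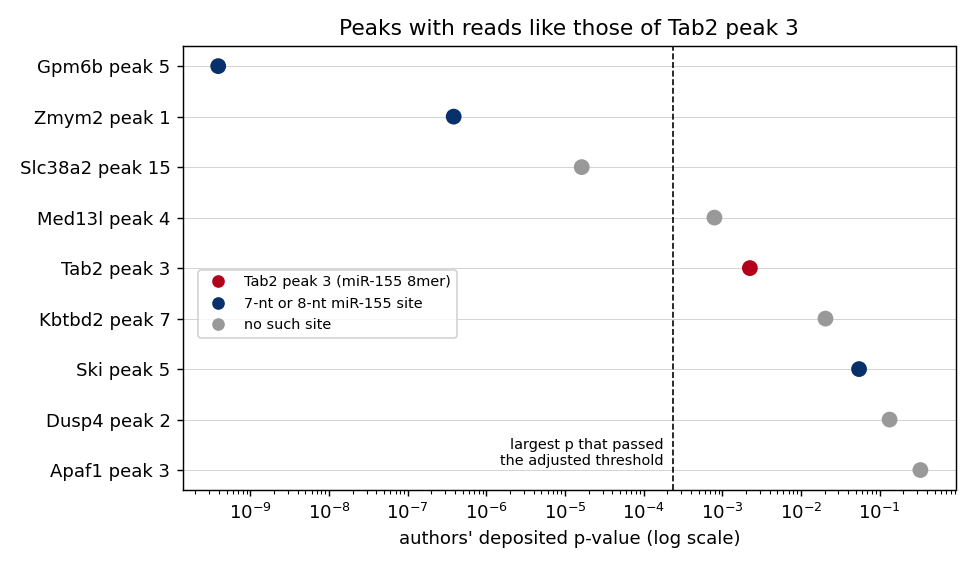
The authors' deposited p-value (log axis) of Tab2 peak 3 (red) and of the 8 peaks within 0.5 log2 units of its reads in both genotypes, 1 row per peak; dark blue marks a 7-nt or 8-nt miR-155 match, grey no such match. The dashed line is the largest p that passed the adjusted threshold, and 3 of these peaks lie to its left.

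Among peaks with a miR-155 match, Tab2 peak 3 stood in the middle. Of 129 such peaks with at least 20 scaled reads, 58 were called lower (44.96%) and the median log2 ratio was 3.41, which is the value of Tab2 peak 3 itself, at rank 65. Among the 35 with an 8mer, 21 were called and the median was 4.69; Tab2 was at rank 25 of these. The cut at 20 reads adds both genotypes, and Tab2 peak 3 passes it only through its wild-type reads. Over all 265 peaks with a match, whatever their reads, 22.3% were called.

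Map3k8 went the other way at its site. Peak 1 held 5.37 wild-type and 23.2 knockout scaled reads, 4.33-fold more (log2 ratio -1.93; p = 0.199 in the authors' deposited table, adjusted p 1.00). Of the 129 site peaks with at least 20 reads only 1 had a lower ratio. Map3k8 was thus at rank 128, and last of the 53 with a 7mer-A1. That cut adds both genotypes, and Map3k8 peak 1 passes it only through its knockout reads. Below the cut, Adam10 peak 1 (a 7mer-A1, log2 ratio -2.72) and Cdk19 peak 6 (-2.10) also had lower ratios. Of 153 peaks with reads within 0.5 log2 units in both genotypes none was called, and their p ran from 0.000409 to 0.997. Only 0.0273% of all peaks were called higher in the knockout, so that count is near the background and says little about these peaks. The nearest site peaks in reads were those of Zfp703 (4.47 and 19.7, p = 0.805), Herc4 (10.1 and 22.0, p = 0.734) and Ikzf3 (10.9 and 12.7, p = 0.571), all with a 7mer-A1.

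**Figure D3:**
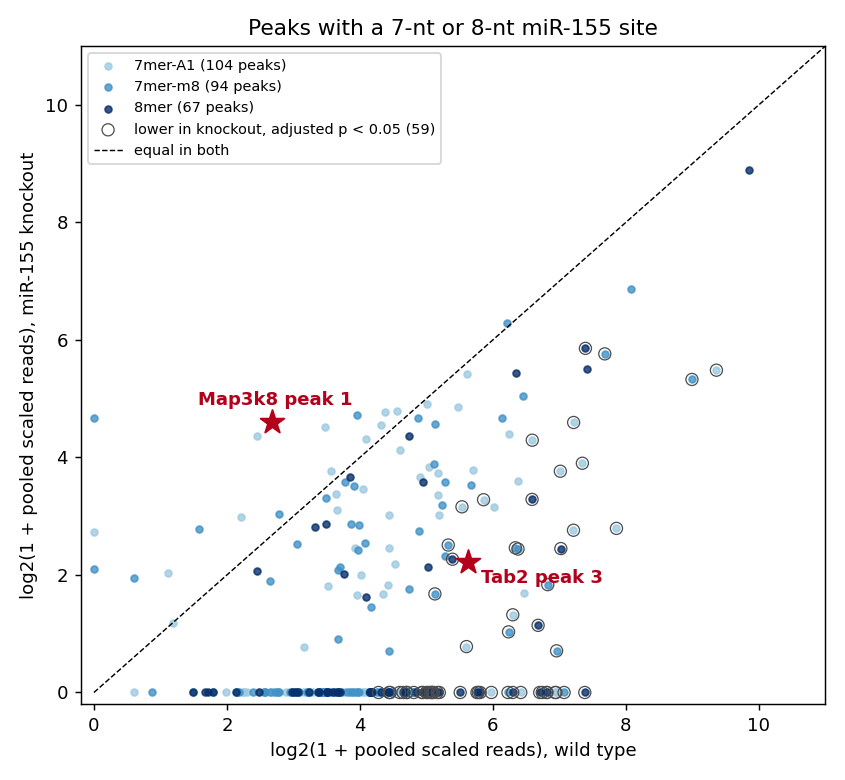
Each of the 265 peaks with a 7-nt or 8-nt miR-155 match by its log2(1 + pooled scaled reads) in wild type (horizontal axis) and in the miR-155 knockout (vertical axis), coloured by class of match; open circles mark the 59 called lower in the knockout, and the dashed line marks equal reads. Stars mark the peaks of Tab2 and Map3k8: Tab2 peak 3 lies below the line among circled peaks, and Map3k8 peak 1 lies above it.

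Unlike Tab2 peak 3, Map3k8 peak 1 held matches of other families beside the miR-155 match. A miR-19 match (TTTGCAC, nt 267 to 273) and a miR-17 match (GCACTTT, nt 270 to 276) overlapped each other and ended 5 nt before the miR-155 match. Both microRNAs belong to a microRNA cluster named after miR-17, which is known to be expressed in activated T cells.
miR-17-5p: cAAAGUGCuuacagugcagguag
The seed of miR-17 is in capitals, and that of miR-19 is printed above. AGO2 reads of this peak can come from any of these microRNAs, and the table does not assign reads to one.

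The table held 5 peaks with both a miR-155 and a miR-17 match, and none was called, where 22.3% of all miR-155 site peaks were called lower. With so few peaks a count of 0 is near that share. In Celf2 such a peak held 33.9 wild-type and 22.8 knockout scaled reads, in Tmem170b 23.4 and 16.5, in Zbtb20 20.4 and 2.57, and in Fam46c 9.63 against a listed 0 in the knockout. Map3k8 was the only one of these higher in the knockout. More widely, of the 129 site peaks with at least 20 reads, 34 also held a 7-nt or 8-nt match of another family searched. Their median log2 ratio was 1.48, against 4.43 for the 95 without one, and 38.2% against 47.4% were called lower. Over all 265 site peaks, whatever their reads, the medians lay closer, at 2.67 for the 56 with another family and 3.25 for the 209 without. Among the 129 with at least 20 reads, the knockout was listed at 0 in 17.6% of the 34 and 43.2% of the 95. In these 2 groups median wild-type reads were 35.2 and 33.4, and median peak lengths 40.5 and 39 nt. Median knockout reads were 11.7 and 2.38. The cut at 20 reads includes the knockout reads, so membership of these groups depends in part on the values compared. This comparison was made after the Map3k8 values were seen and carries no test.

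The other Map3k8 peaks held few reads. Peak 4 held 6.26 wild-type and 15.3 knockout reads (p = 0.968), peak 3 held 9.42 and 7.18, and peak 2 held 2.44 against a listed 0 in the knockout. None of these 3 held a match of any family searched. Over the whole 3' UTR there were 23.5 wild-type and 45.7 knockout scaled reads (log2 ratio -0.93), and 18.1 and 22.5 without peak 1 (-0.30). All 4 peaks lay in the first 451 nt of a 3' UTR of 981 nt, and an 8mer of another family at nt 593 to 600 was under no peak. Of 748 genes with a total within 1.5-fold of it, 71 (9.49%) had a ratio as low or lower.

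Of 12 other genes long studied as miR-155 targets, 9 had peaks, 113 in all. Of these peaks 7 were called lower (6.19% against 0.574% of all peaks) and 0 higher. The list was drawn up with earlier results of these data known, so that share is a description only. Jarid2, which works with the Polycomb complex PRC2, held 129 wild-type and 4.46 knockout scaled reads at an 8mer. Its ratio of 4.57 exceeded that of Tab2 peak 3, on more wild-type reads, and its adjusted p was 2.22e-10. Inpp5d, the phosphatase SHIP1, was called with fewer wild-type reads than Tab2, 30.96, against a listed 0 in the knockout (adjusted p = 0.000225). Also called were Rheb, a GTPase that activates mTORC1, with 128 and 12.6 reads at a 7mer-A1 (adjusted p = 4.57e-07), and the transcription factors Bach1, with 53.9 against a listed 0 at a 7-nt match (adjusted p = 9.07e-05), and Cebpb, with 167 and 56.9 at an 8mer (adjusted p = 0.0111). Of the 7 called peaks, that of Maf, which drives IL-4 transcription, held only a 6-nt match, with 62.9 reads against a listed 0 (adjusted p = 1.30e-05). A further 8mer peak of Jarid2, with 27.6 reads and 0, was not called (adjusted p = 1.00), and neither was that of Ets1, with 7.04 and 0. Trp53inp1 held 925 and 471 reads at its 8mer, with p = 0.00472 and an adjusted p of 0.377. None of the 9 site peaks of these comparison genes, Peli1 of the NF-kB list included, held a match of another family searched. Uncalled 8mer peaks thus ran from few reads to many in these genes.

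In the pathway around TAB2 and MAP3K8, 28 of 50 listed genes of NF-kB signalling had peaks, 109 in all, with a median log2 ratio of 0.21 against 0.20 over all peaks. Of these, 2 were called lower (1.83% against 0.574% of all peaks) and 0 higher. The first was Map3k14, the kinase NIK of the alternative NF-kB pathway, which fell from 101.4 to 1.21 scaled reads at an 8mer (adjusted p = 0.000436). The other was Peli1, a ubiquitin ligase, which fell from 147 to 23.1 at a 7mer-A1 (adjusted p = 0.0161). Peli1 is in the comparison list too, and both lists were drawn up with earlier results of these data known. Malt1, a protease of antigen receptor signalling, held 26.5 and 0 at a peak with a 6-nt match (adjusted p = 0.156). The partner of TAB2, TAK1 (Map3k7), had 1 peak with 16.3 and 38.5 reads. Tab3 held 24.3 and 16.2 in all, and Tab1 and Tnip2 have no listed peak. Nfkb1, which encodes p105, held 317 and 354 over 9 peaks with no miR-155 match.

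In the SOCS and JAK-STAT list 34 of 41 genes had peaks, and of their 213 peaks none was called in either direction (median log2 ratio -0.14). With 0.601% of all peaks called, a count of 0 is near the background and says little about the list. Of the SOCS family, Socs6 alone had a miR-155 match under a peak, with 29.0 wild-type and 11.7 knockout scaled reads (p = 0.481 in the authors' deposited table). Socs3 held 83.3 and 145 in all, Socs5 82.4 and 114, and Cish, another STAT5-induced inhibitor, 65.3 and 117. Socs1, with 133 and 146, thus held the most reads of the SOCS genes and Cish. Stat5b peak 1 held 29.6 and 55.6 (adjusted p = 0.0953), and Ifngr2, a chain of the interferon gamma receptor, 4.47 and 39.5 (adjusted p = 0.131). Il7r held 170 and 44.4 at an 8mer (adjusted p = 0.430).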

How the data were processed

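The 24 libraries were grouped by the genotype in their titles, 12 wild type and 12 miR-155 knockout. The submitters' processing notes name Bowtie 0.12.7 and mm9. Not given in the sources used here are the peak caller, how reads were scaled, how duplicates were handled and which test gave the p-values. The authors deposited, per the file headers, log2 reads per genotype, their log2 ratio and a p-value of differential binding for each peak, pooled over libraries; subtracting the genotype columns gives the ratio to within 6e-05. The lowest deposited log2 value is 0, so scaled reads were taken as 2 to the power of the value, minus 1. The depth of single libraries is unknown. Linkers were balanced, with 6 libraries of each genotype on either linker, but pooled columns do not show values by linker. Benjamini-Hochberg adjustment of the p-values ran over the 14634 peaks of the table.

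Deposited peak sequences, which run 6 nt past the peak on each side in 14608 peaks, were searched on the sense strand for seed matches of 22 microRNA families with sequences in the RefSeq table; miR-150-5p was not searched. Sequences and GRCm38 positions come from exact matches to GENCODE M21 transcripts. With no replicate error, a ratio was taken as moved by an alternative if it shifted by over 1.5-fold. The genes named followed a rule: all peaks of the 3 genes, the 4 smallest p and every called gene of each list, the 3 nearest site peaks, and comparison targets with a site; those with a miR-17 match, near Tab2 in reads, or with an early site were named after their values were seen. A gene that the rule names is not reported here. The sums without a site peak and the comparisons with peaks of similar reads were also chosen after values were seen. Members and lists were chosen with earlier results of these data known. Functions were tested on simulated data. Python 3.11.15, NumPy 2.4.6, pandas 2.3.3 and Matplotlib 3.10.9 were used.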

Additional observations from a re-analysis of the deposited data

How the results depend on the processing

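No paired analysis was possible because the deposited columns pool the libraries of each genotype and carry no replicate number; for the same reason no library could be left out, and differences between the linker sets were not tested. No peak of the 3 genes was called at adjusted p thresholds of 0.01, 0.05 or 0.1, nor with the adjustment restricted to the 9904 peaks of at least 10 scaled reads or to the 11098 with reads in both genotypes. The genes were chosen as not called, so this count is no independent check, and the threshold of 0.01 could not add a call. For Tab2 peak 3 these restrictions gave adjusted p values of 0.148 and 0.356, against 0.219 over all peaks. Its log2 ratio was 3.73 without a pseudocount and 3.21 centred on the median of all peaks; that of Map3k8 peak 1 was -2.11 and -2.13. Summed ratios kept their sign under the 3 alternatives tried, at -0.13 to -0.08 for Socs1, 1.16 to 1.78 for Tab2 and -1.08 to -0.41 for Map3k8. The number of peaks with a miR-155 match stayed at 2 when 6-nt matches were counted, when the flanks were left out and when each peak was widened by 20 nt. The last 2 settings could not change it: the Tab2 and Map3k8 matches lie inside the peaks proper. The Socs1 match lies 37 nt from its nearest peak.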
